A study of Mus musculus with 9 samples.

Results

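The genes described here are 8 lysosomal cathepsins, Ctsa, Ctsb, Ctsc, Ctsd, Ctsh, Ctsl, Ctss and Ctsz, and the cystatins Cst3 and Cstb. They were taken by gene symbol from the 18571 genes of the deposited expression table, which held all 10 of them. Cathepsins are proteases that mature in the acidic lysosome, where they degrade engulfed and endocytosed protein. Most are cysteine proteases of the papain family. Ctsd is instead an aspartic protease and Ctsa a serine carboxypeptidase. Cystatins bind the active site of cysteine cathepsins and block it. Cst3 encodes cystatin C, which is secreted, and Cstb encodes cystatin B, which stays in the cytosol. In brain, microglia are a main source of several of these transcripts, and Ctsb, Ctsd, Ctsl, Ctsz and Cst7 are commonly listed among genes that rise in microglia near amyloid plaques.

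The question of the series is what connexin 43 (Cx43, gene Gja1) in microglia does in an Alzheimer's disease model. RNA came from cells of the cortex and hippocampus of 9-month-old mice on a C57BL6/j background, with the meninges removed, captured on plates with an antibody to CD45, a surface protein of white blood cells and microglia. There were 3 groups of 3 libraries. They were wild type (WT), APP/PS1, and a group with Cx3cr1-CreER and Cx43-flox/flox added to APP/PS1 (Cx43 cKO, here also the knockout). Cx3cr1-CreER is a recombinase made from the Cx3cr1 locus, which microglia and other mononuclear phagocytes use, and it acts once tamoxifen is given. The labels give the same tamoxifen course for all libraries, 0.1 mg/g for 5 days at 8 months of age. They list neither Cre nor floxed Cx43 for WT and APP/PS1, so the knockout group differed from APP/PS1 by both alleles. The APP/PS1 line, the promoter of its transgenes and the number of mice per library are not given in the labels. Libraries may therefore differ by animal or only by preparation, and p-values measure the spread between these libraries.

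Each library held 18907681 to 19565354 estimated counts. Counts of Gja1 were 642 to 716 in WT, 688 to 788 for APP/PS1 and 484 to 539 for the knockout, a log2 change of -0.56 in the knockout against APP/PS1 (SE 0.06, edgeR adjusted p 7.95e-09). Reads outside the floxed part would not show its deletion, and astrocytes express Gja1 too. Ddx3y on the Y chromosome had 4137 to 4538 counts in the WT and APP/PS1 libraries but 0, 1 and 2 in the knockout. The knockout libraries thus differed from the others in sex-linked expression as well as in genotype, and these cannot be told apart. Cx3cr1 counts were 45009 to 46438 in WT, 40701 to 41747 for APP/PS1 and 22379 to 23536 for the knockout. All 10 microglial markers used, P2ry12 and Tmem119 among them, were above 3 counts in every group, and their summed level was 14700.1 to 14828 CPM (counts scaled by library size) in WT, 15972 to 16236 for APP/PS1 and 14441 to 14658 for the knockout. Cx3cr1, the locus of the recombinase, is also 1 of the 10, so its lower counts are part of the lower sum of the knockout. Single markers moved both ways. In APP/PS1 against WT 5 were higher and 3 lower (edgeR adjusted p under 0.05, log2 change -0.48 to 3.02). In the knockout against APP/PS1 2 were higher and 5 lower (-0.88 to 0.23). Of all tested genes 26.9% were higher and 32% lower in the first comparison, and 27.3% and 27.7% in the second. The 11 monocyte and neutrophil markers summed to 2635 to 2677, 922 to 947 and 8447 to 8620.2 CPM in the same order, and the 10 early-response genes of dissociation to 24560.4 to 26011, 19931 to 21098 and 20819 to 21946 CPM. When tested genes were split by transcript length into 10 bins, the median log2 change of the bin with the shortest transcripts, where Cst3 and Cstb lie, was 0.60 in APP/PS1 against WT and -0.51 in the knockout against APP/PS1. It was 0.16 and -0.16 in the next bin, with Ctsh, Ctsl, Ctss and Ctsz, and 0.03 and -0.04 in the bin of Ctsb and Ctsd. Values with a correction for transcript length and GC content are therefore given beside many results of the 10 genes and of the other cathepsins and inhibitors. Genes and markers of the other lists are given without it. A value that stands alone may therefore still change with the correction. In bulk RNA, fewer cells of a type and less RNA per cell cannot be told apart.

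Several of these genes were among the most abundant of the cells. Per transcript length, in TPM (counts scaled by transcript length and library), Cst3 ranked 1 of all genes in each group, at 20276 TPM ± 632 in WT, 34240.4 TPM ± 1318 for APP/PS1 and 23667 TPM ± 1059.6 for the knockout (mean ± SD, n = 3). Ctss ranked 3 and Ctsd 5 in WT, at 8433 TPM ± 202 and 7219.8 TPM ± 151 (SD, n = 3). In the knockout the order of these proteases was the other way round, with Ctsd at rank 2 and Ctss at rank 8. Ctsb followed at rank 29 in WT and 13 in the knockout. Below these in WT came Ctsz at 1303 TPM ± 22.2, Ctsl at 1120.0 TPM ± 32.3 and Ctsa at 797 TPM ± 37.8 (SD, n = 3), none of which overlapped in range with its neighbour. Ctsh, Ctsc and Cstb were the least abundant in WT, at 509.7 TPM ± 10.4, 361 TPM ± 9.9 and 171 TPM ± 12.6 (SD, n = 3), and they too did not overlap. In APP/PS1 the order had changed in the middle, where Ctsl at 2502 TPM ± 81.9 now stood above Ctsz at 1919 TPM ± 49.2 (SD, n = 3). There Cstb at 280.1 TPM ± 6.13 also stood above Ctsc at 236 TPM ± 2.92 (SD, n = 3). In the knockout Ctsl and Ctsz were neighbours at 2063 TPM ± 83.9 and 1965 TPM ± 59.1 (SD, n = 3), and their ranges of 2012 to 2159 and 1900.0 to 2015 TPM overlapped. Together the 10 genes took 2.46, 2.42 and 2.44% of the counts of the WT libraries, 4.61, 4.51 and 4.58% in APP/PS1 and 3.81, 3.77 and 3.81% in the knockout. The groups did not overlap in this share.

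**Figure D1:**
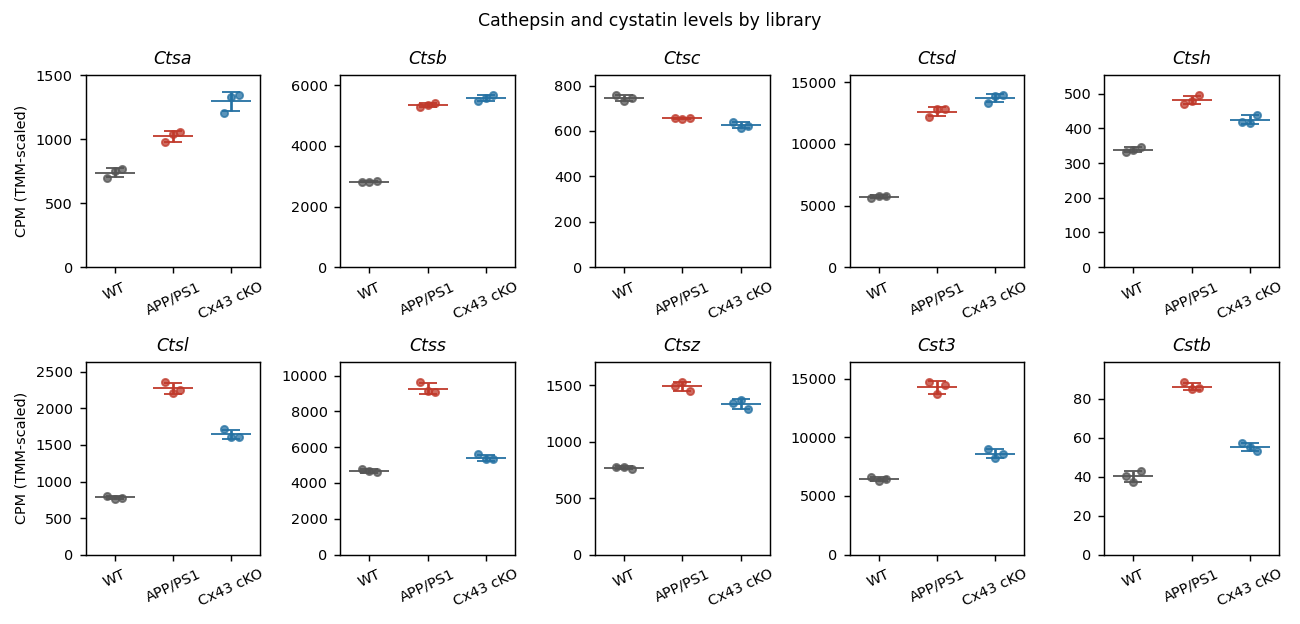
Level of each gene in CPM with TMM scaling, in 9 libraries. Points are libraries, the horizontal line is the mean and the bar the SD (n = 3), and every axis starts at 0. For Ctsl, Ctss, Ctsz, Ctsh, Cst3 and Cstb the APP/PS1 libraries are the highest, while for Ctsa, Ctsb and Ctsd the Cx43 cKO libraries are, and Ctsc is highest in WT.

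The first comparison asks what differs with amyloid. All 10 genes passed the filter on low counts, and all 10 had an adjusted p under 0.05 in APP/PS1 against WT, 9 higher and Ctsc lower. Of all 14696 tested genes 59% were called, 26.9% higher and 32% lower. Higher genes made up 45.7% of all calls, but 29.5% when libraries were scaled by their totals and 14.7% on TPM, where the median of all tested genes moved to -0.17 and -0.35. The median log2 change was 0.97 over the 10 genes and -0.04 over all tested genes. Ctsd, Ctsl, Cst3 and Cstb were at least 2-fold higher, as were 4.83% of tested genes. For each of the 10 genes the ranges of the APP/PS1 and WT libraries did not overlap, which held for 63.5% of tested genes, 28.9% with APP/PS1 above WT and 34.6% below. The 10 were chosen with earlier results of these data known, so their counts describe this set only.

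The second comparison asks what differs with the loss of Cx43 among APP/PS1 mice. Here 3 genes were called higher in the knockout (Ctsa, Ctsb and Ctsd) and 7 lower. Of tested genes 55% were called, 27.3% higher and 27.7% lower. None of the 10 was at least 2-fold higher, as 4.59% of tested genes were. The ranges of the groups lay apart for all 10 genes and for 59.7% of tested genes, 29.4% higher and 30.3% lower. Higher genes made up 49.6% of all calls, and 75.3% on TPM, where the median of all tested genes was 0.14. The median log2 change was -0.17 over the 10 genes and -0.01 over all tested genes. Changes ran from -0.78 for Ctss to 0.34 for Ctsa. With the length and GC correction 6 genes were called, Ctsa and Ctsd higher and Ctsl, Ctss, Ctsz and Cst3 lower. Under that correction 52.6% of tested genes were called, 26.2% higher and 26.4% lower, so the share of the 10 genes was near that of all genes. In the knockout against WT, 9 of the 10 genes were higher and Ctsc lower, against 47.7% of tested genes called, 24.7% higher and 23% lower. Ranges lay apart for all 10 genes and for 54.6% of tested genes, 27.9% higher and 26.7% lower, and the medians were 0.63 and -0.01. Higher genes made up 51.9% of all calls there, 30.4% with library totals and 19.8% on TPM. Ctsd and Ctsl were at least 2-fold higher there, as were 3% of tested genes. The 3 comparisons share libraries, the first pair those of APP/PS1, so their values are not independent.

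**Figure D2:**
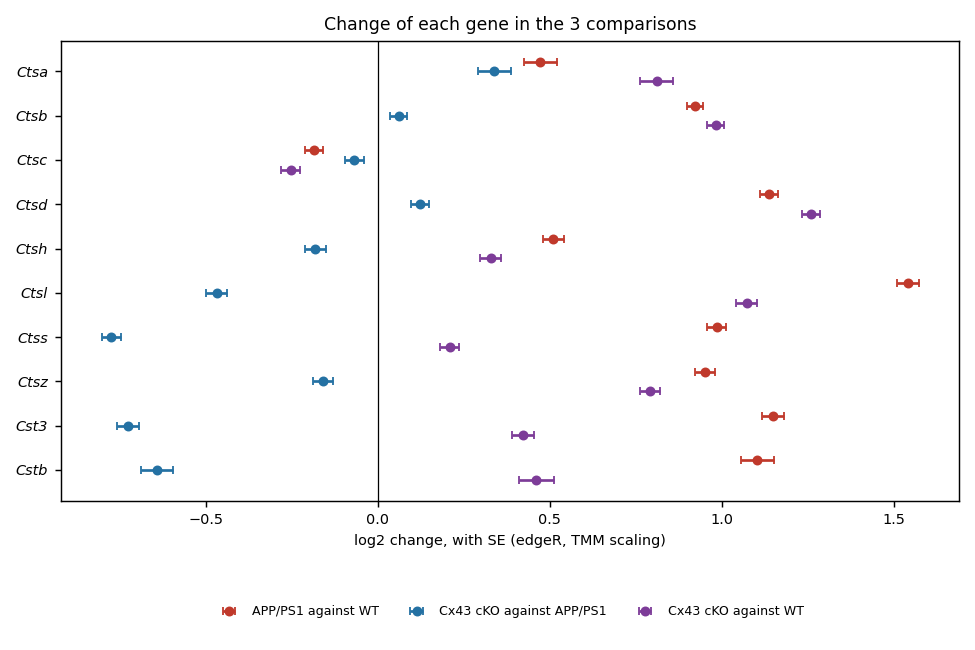
Log2 change of each gene in 3 comparisons from edgeR with TMM scaling. Points are estimates and bars the SE. In APP/PS1 against WT 9 genes lie to the right of 0 and Ctsc to the left, and in Cx43 cKO against APP/PS1 the values run from -0.78 for Ctss to 0.34 for Ctsa.

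Ctsd encodes cathepsin D, the main aspartic protease of the lysosome (chr7:142375910-142387827, GRCm38.p6). Its level in WT libraries 1 to 3 was 5579, 5789 and 5808 CPM, in APP/PS1 12179, 12802 and 12819 CPM and in the knockout 13313, 13869 and 13950.0 CPM. The groups were stepwise higher with no overlap. Ctsd was 2.2-fold higher in APP/PS1 than in WT, a log2 change of 1.14 (SE 0.03, adjusted p 1.2e-22). In the knockout it was higher again than in APP/PS1, by 1.09-fold, a log2 change of 0.12 (SE 0.03, adjusted p 0.000331). That step was small beside the first. With the length and GC correction the changes were 1.10 and 0.11, both called, so this correction moved them little.

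Ctsa encodes cathepsin A, a serine carboxypeptidase that also holds beta-galactosidase (Glb1) and neuraminidase (Neu1) in a protective complex (chr2:164832872-164841032, overlapping Neurl2 and Pltp). Levels were 699.8, 752 and 765 CPM in WT, 975, 1042 and 1058 CPM for APP/PS1 and 1208, 1335 and 1345 CPM for the knockout. Each group lay above the one before it, without overlap. Ctsa rose by a log2 change of 0.47 (SE 0.05, adjusted p 3.46e-06) in APP/PS1 over WT and by 0.34 (SE 0.05, adjusted p 7.15e-05) in the knockout over APP/PS1, which gave the highest increase of the 10 genes in the latter comparison. With the length and GC correction the steps were 0.51 and 0.27, both called (edgeR adjusted p 5.36e-09 and 8.53e-06). On TPM the first step was 0.09 and was not called (limma adjusted p 0.0943), while the second was 0.53 (limma adjusted p 2.24e-06). The medians of all tested genes on TPM were -0.35 for the first step and 0.14 for the second. Of its partners in the complex, Glb1 rose by 0.75 on the log2 scale in APP/PS1 over WT, whereas Neu1 fell, with a log2 change of -0.34. Both rose in the knockout over APP/PS1, by 0.33 and 0.33. Within a library, the ratio of Ctsa to Neu1 in TPM was 14.9, 15.4 and 15.5 in WT, 27.2, 27.1 and 26.9 for APP/PS1 and 26.5, 27 and 28.4 for the knockout. WT lay below the other groups, whose ranges overlapped.

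Ctsb, Ctsl and Ctss encode the endopeptidases cathepsin B, L and S. Cathepsin B can also trim dipeptides from the carboxyl end, and cathepsin S stays active at neutral pH and cuts the invariant chain in antigen presentation. Ctsb (chr14:63122462-63145923, overlapping Fdft1) was at 2812, 2823 and 2837 CPM in WT, 5279, 5351 and 5426 CPM for APP/PS1 and 5492, 5569.5 and 5674 CPM for the knockout. Both amyloid groups lay far above WT and close to each other. It was 1.9-fold higher in APP/PS1 than in WT, a log2 change of 0.92 (SE 0.02, adjusted p 1.1e-21). Between the knockout and APP/PS1 the log2 change was 0.06 (SE 0.02, adjusted p 0.0359), and this call was lost with the length and GC correction (0.03, edgeR adjusted p 0.234). It was also lost without APP/PS1 library 1 or 2 or knockout library 2 or 3, with edgeR adjusted p-values of 0.125, 0.0849, 0.0677 and 0.149.

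Ctsl (chr13:64361890-64370772) was at 805, 763 and 777 CPM in WT, 2356, 2217 and 2254 CPM for APP/PS1 and 1718, 1607 and 1607 CPM for the knockout. APP/PS1 was highest, WT lowest, and no ranges met. Its rise of 2.91-fold in APP/PS1 over WT, a log2 change of 1.54 (SE 0.03, adjusted p 6.47e-24), was the highest of the 10. From APP/PS1 to the knockout it fell by 27.8%, a log2 change of -0.47 (SE 0.03, adjusted p 5.71e-13), and it remained 2.1-fold above WT. The correction for length and GC gave 1.24 for the rise and -0.26 for the fall, both of them called.

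Ctss (chr3:95526786-95556405, spanning the pseudogene Hmgb1-ps5) was at 4802, 4648 and 4599 CPM in WT, 9616, 9116 and 9083 CPM for APP/PS1 and 5604, 5313 and 5324 CPM for the knockout. The APP/PS1 libraries stood apart, and the knockout lay just above WT. In APP/PS1 it was 1.98-fold higher than in WT, a log2 change of 0.99 (SE 0.03, adjusted p 7.09e-21), or 0.68 with the length and GC correction. In the knockout it fell by 41.6% from APP/PS1, a log2 change of -0.78 (SE 0.03, adjusted p 1.4e-18), and stood above WT by a log2 change of 0.21 (SE 0.03, adjusted p 5.47e-07). The decrease was also called with the length and GC correction (-0.57, edgeR adjusted p 1.4e-22) and with TPM values (-0.58, limma adjusted p 3.21e-08). The excess over WT was 0.12 with that correction and was not called on TPM (0.01, limma adjusted p 0.769), where the median of all tested genes was -0.17.

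Ctsc, Ctsh and Ctsz encode cysteine cathepsins that work mainly as exopeptidases. Cathepsin C removes dipeptides and activates the serine proteases of neutrophil and lymphocyte granules, cathepsin H is an aminopeptidase, and cathepsin Z (also called X) is a carboxypeptidase. Ctsz (chr2:174427494-174439039, overlapping Nelfcd) was at 775, 779 and 754 CPM in WT, 1494, 1523 and 1445 CPM for APP/PS1 and 1338, 1369 and 1286 CPM for the knockout. It was 1.93-fold higher in APP/PS1 than in WT, a log2 change of 0.95 (SE 0.03, adjusted p 2.77e-20), and the knockout libraries lay close under those of APP/PS1. That lower level, a log2 change of -0.16 (SE 0.03, adjusted p 2.83e-05), was -0.07 with the length and GC correction (edgeR adjusted p 0.0299) and on the TPM scale 0.03, of opposite sign (adjusted p 0.331, limma). Ctsh (chr9:90054267-90076095) was at 332, 336 and 347 CPM in WT, 471, 479.6 and 495 CPM for APP/PS1 and 419.6, 416 and 439 CPM for the knockout. Again APP/PS1 was highest and WT lowest without overlap. Ctsh rose by 0.51 (SE 0.03, adjusted p 6.83e-14) in APP/PS1 over WT, or 0.28 with the length and GC correction. Its log2 change of -0.18 (SE 0.03, adjusted p 1.17e-05) in the knockout against APP/PS1 was not called with that correction (-0.04, edgeR adjusted p 0.26) nor on TPM (0.01, limma adjusted p 0.794). On TPM the median of all tested genes was 0.14 in the knockout against APP/PS1, above the values of Ctsz and Ctsh.

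Ctsc (chr7:88278024-88315861) was the 1 gene of the 10 that was lower in APP/PS1 than in WT. It was at 758, 734 and 745 CPM in WT, 656, 653 and 657 CPM for APP/PS1 and 639, 613 and 622 CPM for the knockout. WT was highest here, and the amyloid groups lay close together. Ctsc fell by 12.1% in APP/PS1 against WT, a log2 change of -0.19 (SE 0.03, adjusted p 1.26e-06), or -0.20 with the length and GC correction (edgeR adjusted p 4.93e-09). On TPM, where the median of all tested genes was -0.35, the change was -0.61 (limma adjusted p 9.07e-09). Between the knockout and APP/PS1 its log2 change of -0.07 (SE 0.03, adjusted p 0.0343) had no settled direction. It was 0.02 with the length and GC correction (edgeR adjusted p 0.597), and with TPM values 0.11 (limma adjusted p 0.00654). The median of all tested genes on TPM was 0.14 in that comparison. The call was lost without APP/PS1 library 1 or 3 or knockout library 2 or 3, with edgeR adjusted p-values of 0.0733, 0.0749, 0.129 and 0.0906.

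The inhibitors moved together. Cst3 (chr2:148871722-148875512) was at 6610.0, 6231 and 6448 CPM in WT, 14672, 13658 and 14431 CPM for APP/PS1 and 8984, 8261 and 8577 CPM for the knockout. Cstb (chr10:78425670-78427622) was far less abundant, at 40.5, 37.1 and 42.9 CPM in WT, 88.4, 85.2 and 85.3 CPM for APP/PS1 and 57.4, 55.3 and 53.2 CPM for the knockout. In both genes APP/PS1 was highest, the knockout lay between, and no ranges met. In APP/PS1 against WT the log2 change was 1.15 (SE 0.03, adjusted p 2.73e-17) for Cst3 and 1.10 (SE 0.05, adjusted p 8.81e-17) for Cstb. In the knockout against APP/PS1 Cst3 fell by 39.6%, a log2 change of -0.73 (SE 0.03, adjusted p 6.87e-14), and Cstb fell by 35.9%, a log2 change of -0.64 (SE 0.05, adjusted p 5.13e-12). Both have short transcripts, of 747 and 553 nt by the length implied in the deposited FPKM, and the length and GC correction took most of these values. The rises became 0.46 and 0.38 (edgeR adjusted p 1.72e-05 and 3.26e-09). The decreases became -0.21 (edgeR adjusted p 0.00237) and, for Cstb, -0.09, which was not called (edgeR adjusted p 0.0606). Astrocytes also make Cst3. The 10 astrocyte markers summed to 542 to 551 CPM in WT, 737 to 764 CPM for APP/PS1 and 566 to 581 CPM for the knockout. In APP/PS1 against WT 9 of 10 were called higher, and in the knockout against APP/PS1 9 of 10 lower. Gja1, the gene floxed in the knockout group, is 1 of the 10 and 1 of those called lower. The part of these markers in the changes of Cst3 was not tested. Of all tested genes 26.9% were called higher in the first of these comparisons and 27.7% lower in the second. The ratio of Cst3 to Cstb in TPM was 121, 124 and 111 in WT, 123, 119 and 125 for APP/PS1 and 116, 111 and 119 for the knockout, with overlapping ranges.

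Log2 changes in the knockout against WT were 1.26 for Ctsd, 1.07 for Ctsl, 0.98 for Ctsb, 0.81 for Ctsa and 0.79 for Ctsz. They were smaller for Cstb (0.46), Cst3 (0.42), Ctsh (0.33) and Ctss (0.21), and -0.25 for Ctsc. All 10 had an adjusted p under 0.05 (edgeR), and with the length and GC correction Cst3 and Cstb stood at 0.24 and 0.29.

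**Figure D3:**
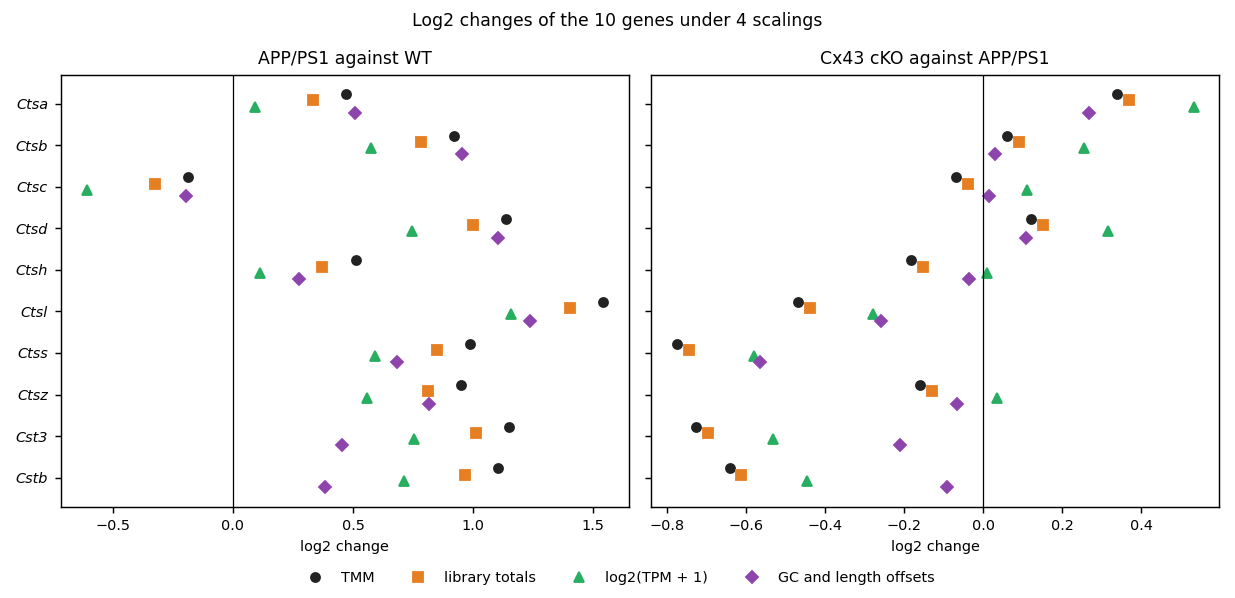
Log2 changes of the 10 genes in APP/PS1 against WT (left) and in Cx43 cKO against APP/PS1 (right) with TMM scaling, library totals, TPM, and offsets for GC content and length. Each point is an estimate from 9 libraries. On the left Ctsc lies below 0 under all 4, and on the right Ctss, Ctsl, Cst3 and Cstb lie below 0 and Ctsa, Ctsb and Ctsd above 0 under all 4, while Ctsc, Ctsh and Ctsz change sign under at least 1 of them.

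Ratios between cathepsins of the same library need no scaling between libraries. The 8 cathepsins summed to 2.3, 2.3 and 2.3% of TPM in WT, 3.57, 3.56 and 3.57% for APP/PS1 and 3.52, 3.53 and 3.56% for the knockout. Both amyloid groups lay above WT and within 3.52% to 3.57%, and their ranges overlapped. The make-up of that sum differed more. Ctss was 37.7, 36.4 and 36.1% of it in WT, 37, 35.1 and 34.9% for APP/PS1 and 25.1, 23.5 and 23.5% for the knockout. Ctsd was 30.7, 31.7 and 31.9% in WT, 32.8, 34.5 and 34.5% for APP/PS1 and 41.7, 43 and 43.1% for the knockout. The knockout libraries thus held a lower part of Ctss and a higher part of Ctsd than all 6 others. In WT and APP/PS1 Ctss was the leading cathepsin, and in 3 of 3 knockout libraries Ctsd was. The ratio of Ctsd to Ctss was 0.857 ± 0.0379 in WT, 0.953 ± 0.0571 for APP/PS1 and 1.78 ± 0.0969 for the knockout (SD, n = 3). For Ctsb to Ctss it was 0.383 ± 0.0144, 0.379 ± 0.0202 and 0.675 ± 0.036 (SD, n = 3). Ctsc made up 1.57% ± 0.0426 of the sum in WT, 0.662% ± 0.00714 for APP/PS1 and 0.721% ± 0.0186 for the knockout (SD, n = 3). Set against the 6 cysteine cathepsins, which cystatins inhibit, Cst3 stood at 1.38, 1.32 and 1.37 TPM per TPM in WT, 1.52, 1.46 and 1.54 for APP/PS1 and 1.28, 1.2 and 1.24 for the knockout. On TPM APP/PS1 was highest and the knockout lowest, without overlap. TPM does not correct the shared movement of short transcripts, and the length and GC correction did not keep Cst3 ahead in APP/PS1. With it the log2 change in APP/PS1 against WT was 0.46 for Cst3, below those of the most abundant cysteine cathepsins, 0.68 for Ctss, 0.95 for Ctsb, 1.24 for Ctsl and 0.82 for Ctsz. In the knockout against APP/PS1 the corrected changes were -0.21 for Cst3, -0.57 for Ctss and -0.26 for Ctsl. They were -0.07 for Ctsz, 0.03 for Ctsb, -0.04 for Ctsh and 0.02 for Ctsc. The lowest place of the knockout thus rests on values without the correction, and a corrected ratio was not computed. The corrected changes of Ctsd and Ctss in the knockout against APP/PS1, 0.11 and -0.57, kept their opposite signs.

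**Figure D4:**
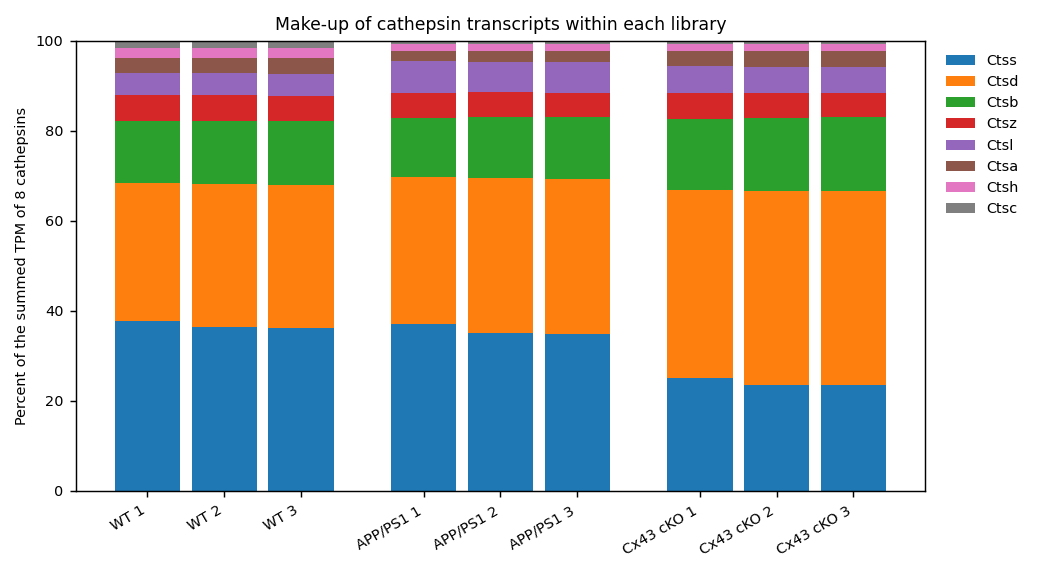
Share of each of 8 cathepsins in their summed TPM, in percent, for each of 9 libraries, as stacked bars. The Ctss part at the bottom is 23.5% to 25.1% in Cx43 cKO against 34.9% to 37% in APP/PS1, and the Ctsd part above it 41.7% to 43.1% against 32.8% to 34.5%.

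RefSeq promoters of GRCm38.p6, from 250 bases before to 50 bases after an annotated start, were found and searched for 7 of the 10 genes. Ctsb, which was higher in the knockout than in APP/PS1, and Ctsh and Cstb, which were lower, had none. A selection is printed, Ctsd and Ctsa from the higher side and Ctss from the lower. The search covered both strands for TCACGTGA, the core of the element bound by TFEB, a transcription factor that drives lysosomal genes, for CACGTG, which lies within it, and for GAGGAAGT, a match to PU.1, a myeloid transcription factor. Matches are in capitals. The sequences are 5′ to 3′ on the strand of the gene, namely Ctsd (chr7:142387778-142388077, minus strand), the downstream of 2 Ctsa starts (chr2:164833523-164833822, plus strand) and Ctss (chr3:95526536-95526835, plus strand).
Ctsd: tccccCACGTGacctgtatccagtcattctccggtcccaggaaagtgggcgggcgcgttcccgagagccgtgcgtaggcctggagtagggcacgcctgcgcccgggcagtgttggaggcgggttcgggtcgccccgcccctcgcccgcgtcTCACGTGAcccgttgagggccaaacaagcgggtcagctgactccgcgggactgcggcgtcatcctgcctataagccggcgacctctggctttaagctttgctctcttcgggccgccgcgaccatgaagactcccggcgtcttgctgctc
Ctsa: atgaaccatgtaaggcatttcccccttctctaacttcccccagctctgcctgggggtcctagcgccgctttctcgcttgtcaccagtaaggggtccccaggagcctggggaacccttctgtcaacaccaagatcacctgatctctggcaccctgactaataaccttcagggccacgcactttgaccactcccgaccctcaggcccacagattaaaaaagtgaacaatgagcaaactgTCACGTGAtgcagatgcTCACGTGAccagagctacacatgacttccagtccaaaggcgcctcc
Ctss: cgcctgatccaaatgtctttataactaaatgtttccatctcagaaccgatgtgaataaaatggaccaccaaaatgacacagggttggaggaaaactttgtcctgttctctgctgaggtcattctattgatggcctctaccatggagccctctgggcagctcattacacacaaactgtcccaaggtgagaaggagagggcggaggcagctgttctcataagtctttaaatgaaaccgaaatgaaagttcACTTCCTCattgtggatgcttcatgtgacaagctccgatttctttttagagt
TCACGTGA occurred once in the Ctsd promoter and at 2 places in that of Ctsa, and in 0.974% of the 32851 promoters of the table. Outside TCACGTGA, CACGTG occurred at a further place in Ctsd and at 1 place in Ctsl. With those within TCACGTGA counted too, CACGTG was in the printed windows of Ctsd and Ctsa, in that of Ctsl and in 7.15% of all promoters. GAGGAAGT, read on the other strand as ACTTCCTC, occurred in Ctss and in Ctsc, against 3.2%. Neither these letters nor TGANTCA, a match to AP-1 found in 7.81% of promoters, occurred in the windows of Ctsz, Cst3 or the upstream Ctsa start, and TGANTCA in none of the 8 windows read. On the lower side, Ctsl thus held CACGTG, Ctss and Ctsc held GAGGAAGT, and Ctsz and Cst3 held no match. A link between matches and the direction of change was not tested. These matches describe the windows read and were not measured as binding.

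Other cathepsins and lysosomal peptidases, from a list of 11, were mixed. In APP/PS1 against WT 6 of 11 were higher and 4 lower, with a median log2 change of 0.08, and in the knockout against APP/PS1 7 of 11 were higher and 3 lower, with a median of 0.15. Of all tested genes 26.9% were higher and 32% lower in the first comparison, and 27.3% and 27.7% in the second. Lgmn, the asparaginyl endopeptidase legumain that processes several cathepsins, was abundant at 2606 CPM ± 41.5 in WT, 2423 CPM ± 87.8 for APP/PS1 and 2715 CPM ± 77.8 for the knockout (SD, n = 3). It was lower in APP/PS1 than in WT, a log2 change of -0.11 (SE 0.03, adjusted p 0.00242), and higher in the knockout than in APP/PS1, a log2 change of 0.16 (SE 0.03, adjusted p 2.07e-05). With the length and GC correction these were -0.17 and 0.19. The signs are the reverse of those of Ctss, Ctsl and Cst3. Ctso, a cysteine cathepsin, rose by 0.58 in APP/PS1 and had a log2 change of -0.47 in the knockout against APP/PS1, both called. Ctsw, a cathepsin of cytotoxic lymphocytes, did likewise at a low level (0.58 and -0.42, 7.92 CPM ± 0.21 in APP/PS1, SD, n = 3), although its rise was 0.38 with the length and GC correction and not called on TPM (0.13, limma adjusted p 0.26). Ctse, a second aspartic cathepsin, rose in both steps (0.25 and 0.53), although the first was 0.15 and not called with the length and GC correction and had the opposite sign on TPM (-0.14). Ctsf, a cysteine cathepsin, fell in APP/PS1 with a log2 change of -0.19 and changed by 0.09 in the knockout against APP/PS1, a call lost without APP/PS1 library 1 or knockout library 2 (log2 change 0.06 and 0.07). The bone-matrix protease Ctsk had 20 to 86 counts per library. Its log2 change in APP/PS1 against WT was -0.69 (SE 0.34, adjusted p 0.104), and it was called without WT library 2 (-1.002, edgeR adjusted p 0.0012), with the length and GC correction (-0.95, edgeR adjusted p 0.0433), when scaled by library totals (adjusted p 0.0491, edgeR) and with TPM values (limma adjusted p 0.0274). In the knockout against APP/PS1 it was -0.37 (SE 0.39, adjusted p 0.453). The peptidases Tpp1, Scpep1 and Prcp changed by 0.13, 0.08 and 0.14 in APP/PS1 against WT, all with the opposite sign on TPM (-0.21, -0.31 and -0.25). On TPM the median of all tested genes was -0.35 there, below each of these values. The call of Scpep1 was lost without any 1 of the 6 libraries compared (edgeR adjusted p 0.0507 to 0.109), and with the length and GC correction its log2 change was 0.02 (edgeR adjusted p 0.687). In the knockout against APP/PS1 they changed by 0.15, 0.20 and -0.08, the last again with the opposite sign on TPM (0.11) and no longer called without APP/PS1 library 1 or 3 or any 1 knockout library (edgeR adjusted p 0.0501 to 0.19). The median of all tested genes on TPM was 0.14 in this comparison.

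The widest changes of the protease list were in Ctsg and Napsa. Ctsg, a serine protease of neutrophil granules, had 928, 902 and 939 counts in the WT libraries, 17, 21 and 15 in APP/PS1 and 472, 458 and 521 in the knockout. It was thus low in APP/PS1 and highest in WT. Napsa, the aspartic protease napsin A, had 467, 481 and 474 counts in the WT libraries, 80.0, 95 and 91 in those of APP/PS1 and 514, 468 and 508 in those of the knockout, so it too was low in APP/PS1. Of the 5 serine proteases activated by cathepsin C, Ctsg among them, 3 were lower and 2 higher in APP/PS1 against WT, and these 3 were higher and the other 2 lower in the knockout against APP/PS1. Elane, neutrophil elastase, changed by -6.20 (SE 0.09, adjusted p 1.46e-27) in APP/PS1 against WT and by 5.41 (SE 0.10, adjusted p 1.94e-25) in the knockout against APP/PS1, and Prtn3, proteinase 3, by -5.55 and 5.15. The other members of that list of 5, the lymphocyte granzymes Gzma and Gzmb, named after their values were seen, were called in the opposite directions, with log2 changes of 0.92 and 0.92 in the first comparison and -0.65 and -0.24 in the second. All 11 monocyte and neutrophil markers were called lower in APP/PS1 than in WT and higher in the knockout than in APP/PS1, and their part in the changes of the cathepsins was not tested. For these lists the shares among all tested genes were 26.9% higher and 32% lower in APP/PS1 against WT. In the knockout against APP/PS1 they were 27.3% and 27.7%.

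Among the other inhibitors, Cst7, which encodes cystatin F, an endolysosomal inhibitor of cathepsin C, rose by the most. It had 210.0, 245 and 238 counts in WT, 18784, 18769 and 19261 for APP/PS1 and 12823, 12611 and 13255 for the knockout. The log2 change was 6.49 (SE 0.04, adjusted p 1.32e-34) in APP/PS1 against WT and -0.60 (SE 0.03, adjusted p 8.74e-16) in the knockout against APP/PS1, and the latter was -0.05 and not called with the length and GC correction (edgeR adjusted p 0.0979). Relative to its target Ctsc, Cst7 stood at 0.0796 ± 0.00775 TPM per TPM in WT, 8.31 ± 0.119 for APP/PS1 and 5.81 ± 0.144 for the knockout (SD, n = 3). The corrected log2 changes in the knockout against APP/PS1, -0.05 for Cst7 and 0.02 for Ctsc, were both not called, so the lower ratio of the knockout rests on values without the correction. Ctla2a and Ctla2b, which resemble the propeptide that keeps cysteine cathepsins inactive, rose by 0.94 and 1.67 in APP/PS1 over WT and had log2 changes of -1.61 and -1.31 in the knockout against APP/PS1. With the length and GC correction Ctla2a stood at 0.64 and -1.40 and Ctla2b at 0.86 and -0.68, all called. As a close pair their reads may be split between them. Serpinb6a, a serpin that inhibits cathepsin G, took the same course (0.89 and -0.64). The opposite course was found for Serpinb1a, an inhibitor of neutrophil proteases (-1.60 and 2.70). The stefin A genes Stfa1, Stfa2, Stfa2l1 and Stfa3 form a cluster of near-identical copies whose reads cannot be assigned with certainty, and their counts did not exceed 90 in WT libraries, 42 in APP/PS1 and 265 in the knockout. In the knockout against APP/PS1 all 4 were called higher (2.44, 4.52, 3.04 and 2.68). In APP/PS1 against WT their log2 changes were -0.97, -2.54, -1.30 and -0.61, with Stfa3 not called (edgeR adjusted p 0.315). The length and GC correction gave -1.81, -3.33, -2.15 and -1.41, and Stfa3 was then called (edgeR adjusted p 0.0176). Cst6 did not pass the filter on low counts.

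**Figure D5:**
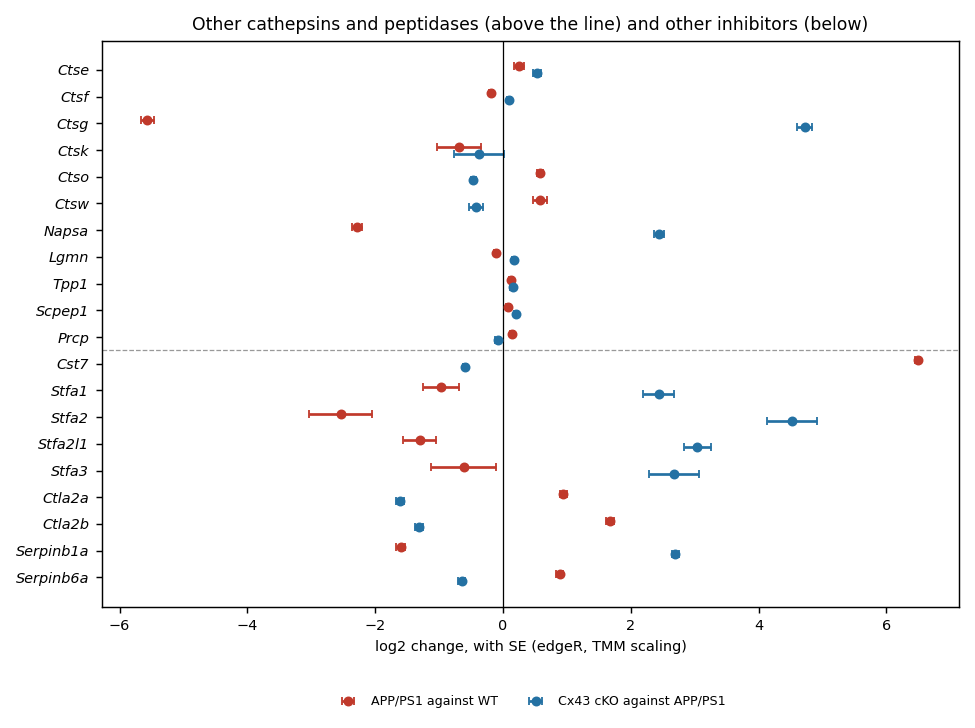
Log2 change with SE (edgeR, TMM scaling) of 11 other cathepsins and peptidases, above the dashed line, and 9 other inhibitors, below it, in 2 comparisons. Cst7 lies farthest right in APP/PS1 against WT at 6.49 and Ctsg farthest left at -5.57, while Ctsg, Napsa, Serpinb1a and the stefin A genes lie right of 0 in Cx43 cKO against APP/PS1.

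Genes that deliver hydrolases to the lysosome were mixed. Newly made cathepsins carry mannose-6-phosphate tags and are sorted by receptors that the retromer recycles. Of this list, 7 of 13 were higher and 5 lower in APP/PS1 against WT (median 0.09), and 7 of 13 were higher and 5 lower in the knockout against APP/PS1 (median 0.16). For this list and the next, the shares among all tested genes were 26.9% higher and 32% lower in the first comparison. In the second they were 27.3% and 27.7%. The retromer subunit Vps29 rose by 0.95 in APP/PS1 and had a log2 change of -0.64 in the knockout against APP/PS1. Gnptg, a subunit of the enzyme that makes the tag, rose by 0.62 in APP/PS1, and the receptor gene Igf2r rose by 0.74 in the knockout over APP/PS1. The transcription factor TFEB, its relatives and the Rag switches that hold them at the lysosome were mixed too. In APP/PS1 against WT 4 of 10 were higher and 4 lower (median -0.07), and in the knockout against APP/PS1 6 of 10 were higher and 2 lower (median 0.13). Tfec, a TFEB relative of macrophages, changed by -1.32 and 1.08 at 24 to 83 counts per library, Rragd rose by 0.69 in APP/PS1, and Rragb changed by -0.89 in the knockout against APP/PS1.

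Genes with the most similar profile were found by the Euclidean distance between log2 CPM values over the 9 libraries, centred on each gene's mean, among 3978 genes with a mean of at least 50 CPM. Nearest to Ctsb were Cadm1, Aplp2 and Nrp1 (distances 0.104, 0.114, 0.157), and to Ctsd Hexa, which encodes a lysosomal hexosaminidase subunit, St14 and Hmgcs1 (0.107, 0.113, 0.191). Nearest to Ctsz were Sdf4, Anxa5 and the lysosomal fucosidase gene Fuca1 (0.137, 0.162, 0.182). Those nearest to Ctss were Psma4, Cycs and Gng10 (0.111, 0.111, 0.114), and to Cst3 Hprt, Ppia and Pdcd10 (0.12, 0.139, 0.147). Among the 10 genes the closest pair was Cst3 and Cstb (0.187), followed by Ctss and Cst3 (0.285) and by Ctsb and Ctsz (0.319). All these distances use values without the length and GC correction, and Cst3 and Cstb lie in the bin with the shortest transcripts. With the correction the log2 changes were 0.46 and -0.21 for Cst3 and 0.68 and -0.57 for Ctss, in the first and second comparison. Whether the same genes stay nearest with it was not tested.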

How the data were processed

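Microglia-enriched RNA from 9 mouse libraries in 3 groups of 3 was read as single-end polyA RNA-seq. The submitters' processing notes name HISAT, Bowtie2, DESeq2 and the build GRCm38.p6, and the counting program, annotation release and use of strand are not given in the sources used here. The deposited table holds estimated counts per gene, the authors' FPKM, the authors' TPM and normalised counts, a signal that the authors made from each count, rounded up, and 1 factor per library. The 12 deposited columns of group means were not used.

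Estimated counts were rounded and tested with edgeR 4.0.16 in R 4.3.3 (TMM scaling, filterByExpr, robust quasi-likelihood fit of all 9 libraries, Benjamini-Hochberg over 14696 genes, threshold 0.05). CPM values use the TMM factors. Each SE is the log2 change divided by the root of the F statistic. FPKM and TPM were tested with limma 3.58.1 on log2(value + 1), which understates changes of low genes, and DESeq2 1.42.0 was an alternative. The length and GC correction subtracts, within 10 bins of each property, the median deviation of each library from the gene means, using the length implied by the deposited counts and FPKM. The procedure was tested on simulated data. Overlapping genes can share reads.

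The 10 genes and all lists were chosen with earlier results of these data known. The text names the 10 genes, every tested gene of the other cathepsins and of the other inhibitors, the 2 most changed genes past the threshold per comparison in each other list, and for Ctsb, Ctsd, Ctsz, Ctss and Cst3 the 3 genes of at least 50 CPM with the nearest profile. Genes were placed on GRCm38.p6 by RefSeq. Of the microglial marker list, 1 gene is not reported here and was left out of the sums.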

Additional observations from a re-analysis of the deposited data

How the results depend on the processing

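The number of the 10 genes called stayed at 10 in APP/PS1 against WT and in Cx43 cKO against WT without any 1 library, and ran from 8 to 10 in Cx43 cKO against APP/PS1. Of 14822 to 14846 tested genes, these fits called 8024 to 8233, 6291 to 6529 and 7345 to 7742 in the same order. Over the other settings tried (edgeR with DESeq2 size factors or library totals, DESeq2, limma-voom, other count filters, only the 2 groups compared, a threshold of 0.01, FPKM, TPM, and offsets) it was 9 or 10 in the comparisons with WT. In Cx43 cKO against APP/PS1 it was 8 to 10, except with offsets for GC content and length, where it was 6. All-gene calls over these settings were fewest with DESeq2, of 18571 genes, and most with TPM, of 14696. They were 6998 to 11349 in APP/PS1 against WT, 5303 to 9047 in Cx43 cKO against WT and 6463 to 9085 in Cx43 cKO against APP/PS1. With the offsets 7568 of 14401 genes were called in Cx43 cKO against APP/PS1. Those offsets take out the part of each change that genes of the same length and GC content share. For the 10 genes, 199 of 200 values under alternatives kept direction and call in APP/PS1 against WT, 176 of 200 in Cx43 cKO against APP/PS1 and 199 of 200 in Cx43 cKO against WT. In APP/PS1 against WT the log2 change took the opposite sign with scaling by library totals for Tpp1 (-0.0079), Scpep1 (-0.0547), with FPKM with a pseudocount of 1 for Scpep1 (-0.0538), with FPKM with a pseudocount of 0.1 for Scpep1 (-0.0544), with TPM for Ctse (-0.14), Tpp1 (-0.21), Scpep1 (-0.31), Prcp (-0.25). In Cx43 cKO against APP/PS1 the log2 change took the opposite sign with TPM for Ctsc (0.11), Ctsh (0.0102), Ctsz (0.0344), Prcp (0.11), with offsets for GC content and length for Ctsc (0.0154), with those offsets with the replicate block for Ctsc (0.0156). In Cx43 cKO against WT the log2 change took the opposite sign with scaling by library totals for Lgmn (-0.0487), Prcp (-0.0489), with FPKM with a pseudocount of 1 for Ctsw (-0.0549), Lgmn (-0.0489), Prcp (-0.0476), with FPKM with a pseudocount of 0.1 for Ctsw (-0.064), Lgmn (-0.049), Prcp (-0.0486), with TPM for Ctso (-0.0844), Ctsw (-0.14), Napsa (-0.042), Lgmn (-0.14), Prcp (-0.14). The cause was not tested.

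Libraries carry the same numbers in each group, but the labels do not say that a number marks a shared litter, batch or day. Deviations from the group means correlated between libraries of the same number with a mean r of 0.19 over 9 pairs (0.0549 to 0.289, across 10813 genes, which are not independent replicates) and of different numbers with -0.0954 over 18 pairs. Deviations from a group mean cancel within the group, so a positive mean r for equal numbers forces a negative one for different numbers. The value of -0.0954 is therefore not separate evidence. In 18 of 18 cases a library correlated best with the one of its own number. These cases are not independent, as they are the same 9 pairs, each seen from both of its libraries. The positive r of those pairs is a hint from the data and not from the design. With the replicate block all 10 genes were called in each comparison, and 8 in Cx43 cKO against APP/PS1 with offsets and block together. The block also raised the calls among all 14696 tested genes. They went from 8670 to 9319 in APP/PS1 against WT, 8085 to 8851 in Cx43 cKO against APP/PS1 and 7010 to 7934 in Cx43 cKO against WT. With offsets and block together 8123 of 14401 genes were called in Cx43 cKO against APP/PS1. The block also brought the call of Ctsk in APP/PS1 against WT (log2 change -0.66, edgeR adjusted p 0.0185). Depth, at about equal totals, limits precision most for low genes such as Ctsk, Tfec and the stefin A genes.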
